A study of Homo sapiens with 2 samples.

Results

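Described here are the ERBB2-high cells found in a long-read single-cell library. The cells came from 3 established human lines, all derived from ovarian cancers: SK-OV-3, COV504 and IGROV1. They were mixed at equal parts and untreated as far as the labels say, and nothing in the labels ties a barcode to a line. The pool gave 1 Illumina library and 1 PromethION library, the latter a nanopore platform that can follow a cDNA from end to end, and all values come from the PromethION library. All 627 members were also on the barcode list of the Illumina library. With 1 library there is no replicate of any value and no test between groups, since cells of 1 library are not replicates. Every interval is a 95% exact interval (Clopper-Pearson for a share, conditional binomial for a ratio) that covers counting error only.

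Members were chosen by 10 genes. A barcode with at least 1000 counts was assigned to group A, the ERBB2-high cells, when ERBB2, NNMT, TSPAN1 and DHRS2 together gave at least 2 counts and at least 75% of all counts of the 10 genes. Group B, the RARRES2-high cells, was assigned in the same way from RARRES2 and TMEM100, and group C, the FOLR1-high cells, from FOLR1, CLDN3, DEFB1 and CXCL14. Of 2462 barcodes, 2129 reached the minimum, and 627 of them (29.5%, interval 27.5 to 31.4%) were ERBB2-high cells. Group B held 457 barcodes, group C held 730, and 315 stayed without a group. The members held 3389809 counts in all, with a median of 5002 per barcode (1080 to 14346), against medians of 6502 in B and 5344.5 in C.

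ERBB2 encodes HER2, a receptor tyrosine kinase that has no known ligand of its own and signals by pairing with EGFR, ERBB3 or ERBB4. SK-OV-3 is a widely used ovarian cancer line known for extra copies of the 17q12 segment that carries ERBB2 and for a deletion at the CDKN2A locus. Genes beside ERBB2, such as GRB7, STARD3, MIEN1 and PGAP3, are often gained with it.

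The 4 genes that chose the members are given as a description. Levels are CPM, the counts of a gene summed over a group and given per 1000000 counts of the group, which is not scaled for gene length. ERBB2 stood at 432 CPM in A, 19.8 in B and 22.2 in C. NNMT, which methylates nicotinamide, stood at 849 CPM in A, 56.6 in B and 1.14 in C. TSPAN1, a tetraspanin of the cell surface, stood at 411, 17.7 and 8.68 CPM, and DHRS2, a short-chain dehydrogenase, at 336 CPM in A and at 0 counts in both other groups. ERBB2 was seen in 78.1% of the members, NNMT in 91.9%, TSPAN1 in 73.1% and DHRS2 in 58.2%, without thinning. A member had a median of 10 counts of the 4 genes (2 to 63), and in 395 members (63.0%) no count of the 6 genes of the other groups was present. The 21 members between 75 and 80% had a median of 7 own counts, and the 9 barcodes between 70 and 75%, just outside, had a median of 8. Among the barcodes without a group, 120 had at least 2 counts of the 4 genes. Scrublet, which finds doublets by simulation, marked 10 of the members and 39 of the barcodes without a group.

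Markers that took no part in the choice were set beside the label. Among them, GRB7, MIEN1, STARD3 and PGAP3 lie close to ERBB2, a choosing gene, so they are no separate evidence for the label. GRB7, an adaptor protein that binds HER2, stood at 56.3 CPM in A, 2.39 in B and 29.5 in C. MIEN1 stood at 531, 144 and 102 CPM, STARD3, a cholesterol-binding protein of late endosomes, at 215, 22.1 and 13.3 CPM, and PGAP3, which remodels lipid anchors of surface proteins, at 22.4, 2.39 and 1.83 CPM. MIEN1, STARD3 and PGAP3 were therefore over 2-fold higher in A than in both other groups, while GRB7 was 1.91-fold higher than in C (interval 1.52 to 2.41). CDKN2A gave 1 count in A, 0 in B and 85 in C, so it set A apart from C and not from B. GRB7 likewise passed 2-fold against B alone. Of the markers of other cell types, PTPRC, CD3E and LYZ (blood cells), VWF (endothelium), DCN and COL3A1 (fibroblasts) and HBB (red cells) were at 0 counts in the members. CDH5 gave 1 count (103 in B and 17 in C), HBA1 2, PECAM1 4 and LUM 8, CD68 shares its entry with other genes, and COL1A1 gave 323 counts, most of them in a small set of members described further on.

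Gene entries (a gene, or overlapping genes counted as one) were compared where at least 1 group reached 10 CPM, and the 10 choosing genes were left out. An entry counted as higher or lower when its CPM in A was at least 2-fold higher, or at most 0.5 times as high, against both B and C. Of 9481 entries, 1117 (11.8%) were higher than both and 391 (4.12%) were lower than both. The whole distribution was shifted: the median log2 ratio was 0.22 against B and 0.49 against C. Mitochondrial genes took 2.92% of the counts in A, 3.10% in B and 7.05% in C, and ribosomal protein genes 11.6%, 14.1% and 25.7%. With both medians of ratios set to 1, 585 entries (6.17%) were higher and 662 (6.98%) were lower, so the balance between directions depends on the scaling, and list counts are given under both scalings. Of the 9481 entries, 22.6% were at least 2-fold higher than B alone and 28.4% than C alone, while 14.2% were at most 0.5 times B and 9.60% at most 0.5 times C. Thinned to 2000 counts, the 593 members deep enough had a median of 1149 gene entries per cell, against 1094 in B and 945 in C, after 34, 22 and 25 shallower barcodes were left out. At full depth A had a median of 2144 entries, B 2392 and C 1851.5, and the members were thus above B at equal depth and below it at full depth.

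**Figure D1:**
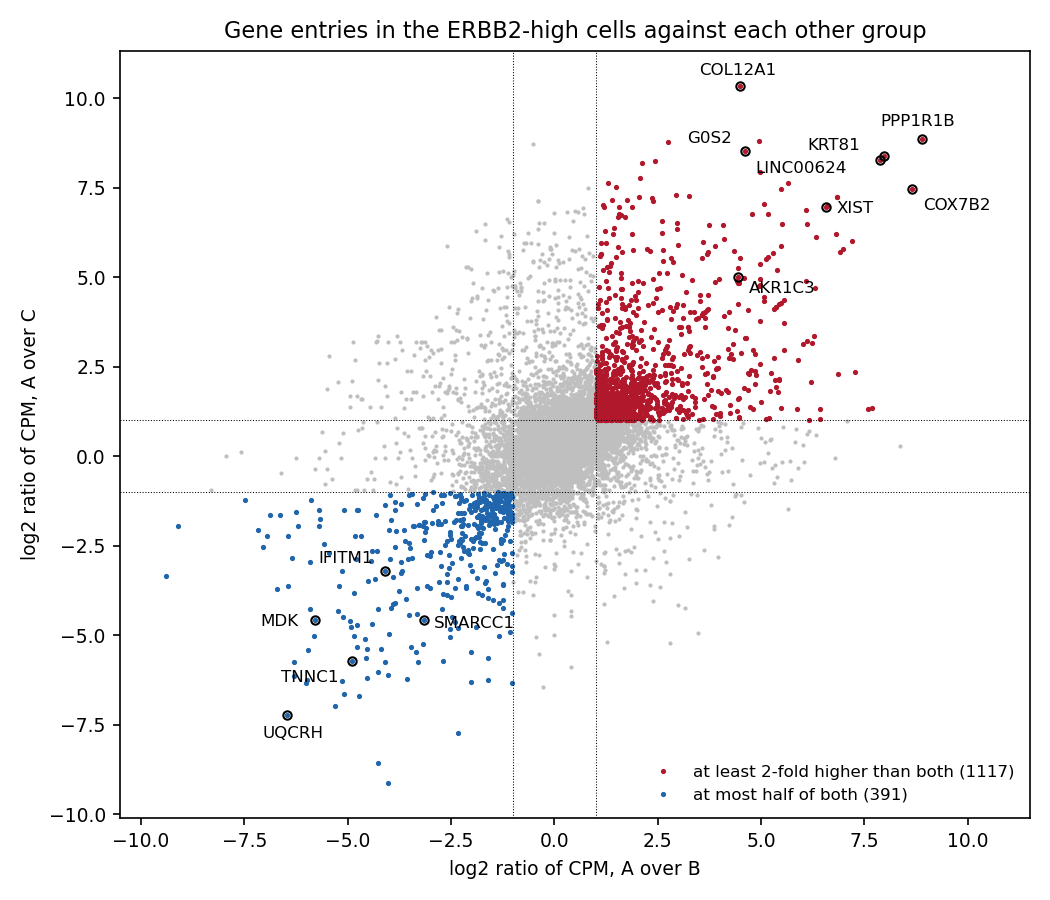
Log2 ratio of CPM in the ERBB2-high cells over B (x axis) and over C (y axis), 1 point per compared entry. Dotted lines mark 2-fold, a group at 0 counts was set to 3 counts, and circles mark named genes. The 1117 entries higher than both lie at the upper right and the 391 lower than both at the lower left, with UQCRH among the lowest.

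The gene furthest above both groups was PPP1R1B (ENSG00000131771, chr17:39626740-39636626, plus strand, GRCh38), which encodes DARPP-32, an inhibitor of protein phosphatase 1. PPP1R1B stood at 427 CPM in the members, with 1447 counts, against 0 counts in B and 4 counts (0.914 CPM) in C. It was at least 475-fold higher than in B, with B set to 3 counts, and 467-fold higher than in C (interval 182 to 1717). At 2000 counts it was seen in 36.8% of the members, in 0 of the 435 cells of B and in 0.142% of C. It lies 61.2 kb before the start of ERBB2.

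COX7B2, a testis form of a subunit of cytochrome c oxidase, stood at 121 CPM in A with 1 count in B and 0 in C. The long non-coding RNA LINC00624 stood at 75.5 CPM with 1 count in each other group. XIST, the non-coding RNA that silences an X chromosome, had 291 counts in A (85.8 CPM) and 0 in both other groups. TMEM47, also on the X chromosome, had 209 counts in A, 0 in B and 3 in C. All 4 were seen in at least 12.1% of the thinned members and in at most 0.230% of the thinned cells of B or C.

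Several of the 20 highest genes had a high level in many members. G0S2, an inhibitor of triglyceride breakdown, stood at 1589 CPM in A, 64.9 in B and 4.34 in C, and was seen in 75.5% of the thinned members against 6.44% of B and 0.426% of C. COL12A1, a fibril-associated collagen, stood at 298 CPM in A, 13.2 in B and 0.228 in C. AKR1C3, an aldo-keto reductase that acts on steroids and prostaglandins, stood at 554 CPM, 25.4 and 17.1, and was seen in 59.4% of the thinned members. ANPEP, the membrane aminopeptidase CD13, stood at 87.3 CPM in A, 0.898 in B and 0 in C. CLMP, a junctional adhesion protein, stood at 110 CPM in A, 3.29 in B and 5.48 in C. RBP4, the plasma carrier of retinol, stood at 74.3, 3.29 and 1.60 CPM. KRT81, a hair keratin, stood at 70.2 CPM but came from few cells: 30 members (4.78%) held its 238 counts, 235 of them in the COL1A1-led set described below. The others among the 20 were AC004846.1, ALDH3A1, AC023157.3, NPTXR, TUSC3, MFAP3L, SLC7A2 and the joint entry of AC104532.1 and CAPS, at 51.9 to 280 CPM in A and at most 13.2 CPM in B or C. Without the COL1A1-led set, or with ERBB2 as the only choosing gene of A, KRT81 was under 10 CPM in every group and was not compared. The other 19 stayed past the 2-fold limit under every alternative.

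The gene furthest below both groups was UQCRH (ENSG00000173660, chr1:46303631-46316776, plus strand, GRCh38), the hinge protein of mitochondrial complex III. UQCRH stood at 11.2 CPM in the members, 990 in B and 1671 in C. The low level was close to an absence per cell: 619 of the 627 members had 0 counts, whereas only 14 of the 457 cells of B and 10 of the 730 cells of C had none. The median was 6 counts in a cell of B and 9 in a cell of C. The 38 counts of the members lay in 8 barcodes (1 to 12 each), and 5 of those 8, with 35 of the counts, were doublets by Scrublet. With the 10 doublets left out, 3 counts of UQCRH remained in the members, at 0.908 CPM. UQCRHL, a near-identical copy of UQCRH, gave 1 count in A, 4 in B and 8 in C. Of the 120 ungrouped barcodes with at least 2 counts of the 4 choosing genes of A, 91 held UQCRH.

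**Figure D2:**
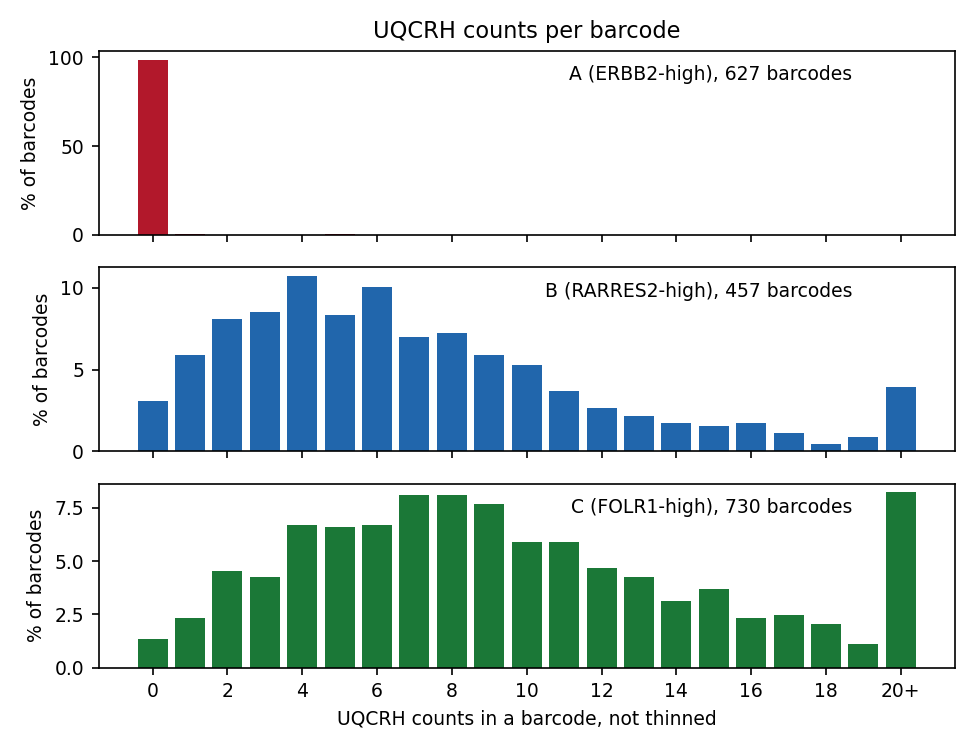
Percent of barcodes (y axis, its own scale in each panel) by the number of UQCRH counts in the barcode (x axis, 20 or more in the last bar) for the ERBB2-high cells (627), B (457) and C (730), not thinned. Almost all ERBB2-high cells are at 0, while B and C centre on 6 and 9 counts.

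Entries next to UQCRH were mixed. LRRC41, which starts 26.2 kb before it, stood at 8.56 CPM in A, 30.2 in B and 40.4 in C, and was also lower than both. NSUN4, which starts 36.5 kb after it, stood at 10.9, 3.59 and 19.6 CPM. LURAP1, which starts 100 kb before it, stood at 10.6, 2.69 and 0 CPM and was higher than both. POMGNT1, which starts 115 kb before it, stood at 17.1, 12.9 and 11.9 CPM. The joint entry of PIK3R3, which starts 263 kb before it, stood at 6.20, 15.3 and 33.1 CPM and was lower than both.

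The other low genes had at most 6 counts in any member. MDK, the heparin-binding growth factor midkine, stood at 26.0 CPM in A, 1444 in B and 620 in C, with 88 counts in 65 members. SPON1, the matrix protein spondin 1, stood at 7.38, 225 and 178 CPM, and its 25 counts lay in 17 members. Of these, 12 were in the 8 barcodes with UQCRH counts, and without those barcodes it stood at 3.90 CPM. IFITM1, an interferon-induced membrane protein, stood at 51.9, 883 and 482 CPM. GPRC5A, a retinoic acid-induced receptor, stood at 10.6, 129 and 167 CPM, and PEG10, an imprinted gene of retroelement origin, at 5.31, 52.4 and 286 CPM (3.30 CPM in A without the 8 barcodes). SMARCC1, the BAF155 core subunit of SWI/SNF chromatin remodelling complexes, stood at 5.90 CPM, with 20 counts in 19 members, against 52.7 in B and 140 in C. The slow-muscle troponin C gene TNNC1, NMB (neuromedin B), STMN3 (a microtubule-destabilising stathmin), the joint entry of RTEL1 and TNFRSF6B, and the joint entry of ACAA2 and MYO5B complete the 12. They stood at 1.77 to 10.0 CPM in A and at 52.7 CPM or more in B and C. All 12 stayed past the 2-fold limit under every alternative.

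Among the lists with at least 10 compared entries, the genes around ERBB2 on 17q12 had the largest share higher than both. The list was chosen with the label in view, so its direction is no separate evidence. Of 24 compared entries within the list, 13 were higher than both and 0 lower, and with medians set to 1, 10 were higher and 0 lower. Over all entries, 11.8% were higher and 4.12% lower, or 6.17 and 6.98% with medians set to 1. List counts below are to be read beside these shares. The list medians were 1.64 (log2, against B) and 1.47 (against C), beside 0.22 and 0.49 over all entries. Between MED1 and MIEN1, all 8 consecutive compared entries on either side of ERBB2 were higher than both, or the 6 from PPP1R1B to MIEN1 with medians set to 1. PNMT, which makes adrenaline from noradrenaline, had 116 counts in A and 1 in each other group, and TCAP, a sarcomere protein, had 35, 2 and 0 counts. PSMD3, a proteasome subunit, stood at 255 CPM in A, 75.4 in B and 66.9 in C. The heme-binding nuclear receptor gene NR1D1, 405 kb after the ERBB2 start, stood at 65.8, 17.1 and 2.97 CPM. MED1, a Mediator subunit (70.5, 26.6 and 26.5 CPM), and CDK12, a transcriptional kinase (79.7, 36.2 and 30.4 CPM), passed the limit by total counts and missed it with medians set to 1, as did MSL1. TOP2A, 701 kb after ERBB2, stood at 291, 216 and 213 CPM and missed the limit. IGFBP4, which binds insulin-like growth factors and lies 756 kb after ERBB2, went the other way against B, at 5.90, 269 and 1.60 CPM. GRB7 was the entry nearest to ERBB2 that did not pass.

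**Figure D3:**
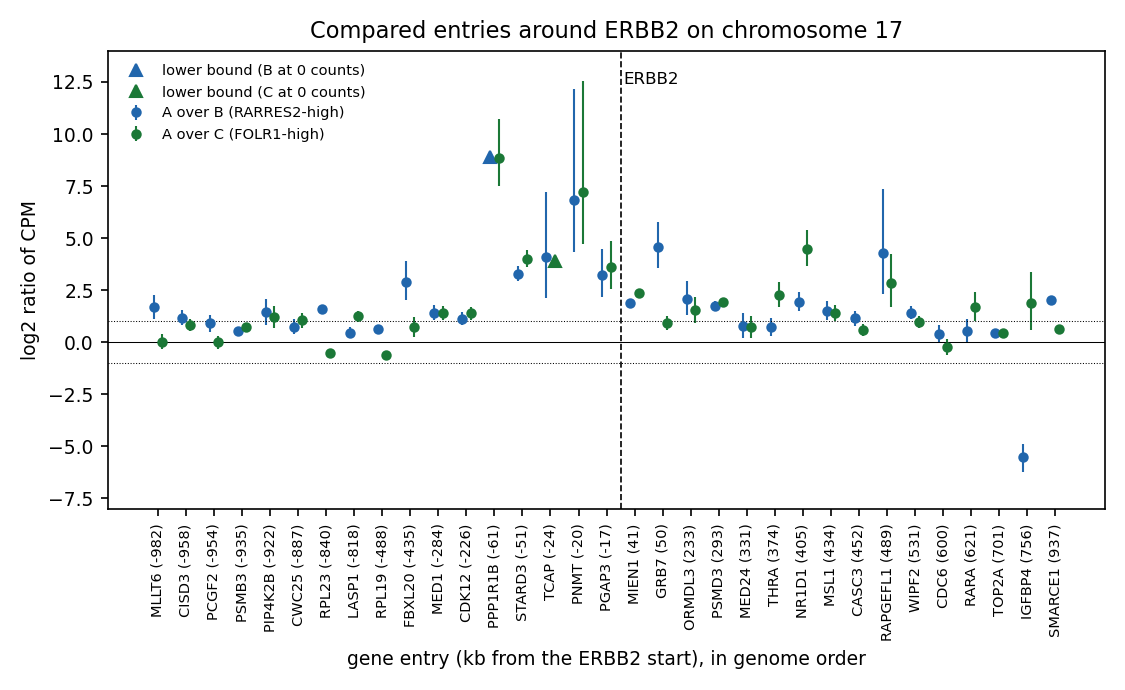
Log2 ratio of CPM of the ERBB2-high cells over B and over C (y axis) for compared entries within 1000 kb of the ERBB2 start, in genome order (x axis, kb from that start in brackets), with 95% counting intervals. Triangles are lower bounds where a group had 0 counts, and dotted lines mark 2-fold. Entries from MED1 to MIEN1 lie above the upper line in both comparisons.

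The ligands and partner receptors of HER2 were mixed. Of 7 compared entries of that list, 1 was higher than both and 0 lower under both scalings. EGFR, the family's founding receptor, stood at 68.4 CPM in A, 146 in B and 44.1 in C. ERBB3, the kinase-impaired partner of HER2, had 0 counts in A, 26 in B and 39 in C, below the minimum for comparison. ERBB4 had 16 counts in A, 0 in B and 149 in C. The entry that passed was NRG1, a ligand of ERBB3 and ERBB4, at 26.6, 11.1 and 0 CPM, and without the 67 members of the COL1A1-led set described below it was 1.83-fold above B and missed the limit. AREG, a ligand of EGFR, stood at 71.7, 46.7 and 13.5 CPM.

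Of 24 compared adaptors and kinases downstream of the receptors, 5 were higher than both and 0 lower (3 and 0 with medians set to 1). The docking protein gene GAB1 stood at 13.6 CPM in A, 0.599 in B and 1.83 in C, and PIK3CB, a catalytic subunit of PI3 kinase, at 26.3, 11.1 and 4.34 CPM. PIK3R1 passed only by total counts. Of 18 feedback inhibitors and induced targets, 5 were higher and 0 lower by total counts, against 4 and 2 with medians set to 1. ERRFI1, an inhibitor of the ERBB kinases, stood at 75.5, 11.4 and 8.91 CPM. PHLDA1 (1077, 185 and 31.1 CPM), IER3 (1141, 189 and 67.9 CPM) and EGR1 (205, 31.4 and 25.4 CPM), all early response genes, were also higher, as was SPRED2 by total counts. CCND1, which encodes cyclin D1, had 1505 counts in A, 3090 in B and 3353 in C, missed the limit by total counts and was lower than both with medians set to 1.

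SESN2, a stress-induced regulator of mTORC1, stood at 67.6 CPM in A, 8.98 in B and 21.02 in C and was higher than both. FAS, the death receptor gene, stood at 6.49, 13.5 and 22.4 CPM and was lower than both. CDKN1A, the p21 gene, had 25 counts in A, 26 in B and 144 in C and missed the limit against B.

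Some genes of DNA replication were low over all members taken as 1 sum. Of 26 compared S-phase entries, 6 were lower than both and 0 higher (9 and 0 with medians set to 1), namely MCM2 and MCM7 of the replicative helicase, GINS2, the licensing factor CDT1, the chromatin remodeller HELLS and the joint entry of RRM2, a ribonucleotide reductase subunit. MCM7 stood at 38.9 CPM in A, 133 in B and 136 in C. Of 30 G2 and M phase entries, 1 was lower (AURKB, a mitotic kinase, at 18.3, 39.2 and 40.9 CPM), or 6 with medians set to 1, and 0 were higher. At 2000 counts a member held a median of 1 count of the G2 and M list, 30.2% held 0, and the highest count was 65, against medians of 9 in B and 3 in C. The members were uneven: summed over the G2 and M list, the 452 cells of subcluster 1 described below stood at 683 CPM, the 108 of subcluster 2 at 9736 and the 67 of the COL1A1-led set at 4073, against 5257 in B and 3730 in C. For the S-phase list the values were 577, 3620 and 1245 CPM, against 2672 and 1973. Of 12 compared G1 cyclins and kinases, 1 was higher (CDKN2C, the p18 inhibitor) and 0 lower, or 2 lower with medians set to 1.

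Enzymes of NRF2 targets and xenobiotic metabolism had many members above both groups: 11 of 29 compared entries were higher and 1 lower (9 and 1 with medians set to 1). AKR1C1 stood at 397 CPM in A, 5.39 in B and 95.3 in C, and AKR1C2 at 174, 2.69 and 19.9 CPM. The AKR1C genes are close copies of each other, so reads may have been divided between them. MGST1, a microsomal glutathione transferase, stood at 104, 0.898 and 21.2 CPM, SLC7A11, the cystine transporter, at 262, 6.88 and 52.1 CPM, and NQO1, a quinone reductase, at 597, 253 and 137 CPM. ALDH3A1 stood at 74.9 CPM with 7 counts in B and 0 in C, while ALDH1A1, a retinal dehydrogenase, was the one lower entry, at 0.590, 11.4 and 224 CPM. In the list of NAD and methyl donor metabolism, to which NNMT belongs by function, 4 of 23 were higher and 1 lower (1 and 2 with medians set to 1). Over all entries the shares were 11.8 and 4.12% (6.17 and 6.98% with medians set to 1). The entry of QPRT, which makes NAD from quinolinate and is counted with AC009086.2, stood at 620, 79.6 and 140 CPM, and NMNAT2, an NAD synthase, at 1.48, 22.1 and 15.3 CPM.

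Epithelial and mesenchymal genes were mixed. Of 19 compared mesenchymal genes, 5 were higher than both and 1 lower (3 and 1 with medians set to 1). VIM, the intermediate filament vimentin, stood at 4653 CPM in A, 1402 in B and 2032 in C, and S100A4 at 6716, 77.8 and 2672 CPM, but both missed the limit with medians set to 1. The transcription factor genes ZEB1 (103, 26.9 and 28.1 CPM) and SNAI2 (29.8, 4.79 and 0 CPM) passed under both. CALD1, an actin-binding protein, stood at 112, 652 and 228 CPM. Of 19 epithelial junction genes, 2 were higher and 3 lower (0 and 4 with medians set to 1). EPCAM, an epithelial adhesion molecule, stood at 36.9, 104 and 105 CPM, and SPINT1, a protease inhibitor, at 3.54, 31.4 and 18.0 CPM. Among 10 compared keratins, KRT18 was lower (549, 4791 and 1148 CPM) and KRT5, KRT10, KRT14 and KRT81 were higher, KRT10 only by total counts.

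Of 31 actin-binding and contractile genes, 2 were higher and 4 lower (1 and 4 with medians set to 1). TPM1, the alpha tropomyosin gene, stood at 224 CPM in A, 1057 in B and 989 in C, and MYL9, a myosin light chain gene, had 3 counts in A, 79 in B and 402 in C. In the ovarian and Müllerian lineage list, 3 of 16 were higher and 0 lower (2 and 0 with medians set to 1): ESR1, the estrogen receptor alpha gene, stood at 39.8, 2.99 and 0.457 CPM, SLPI, a secreted protease inhibitor, at 1851, 383 and 100 CPM, and MECOM passed by total counts. PAX8, a lineage factor of these tumours, had 348, 317 and 624 counts and missed the limit.

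Among 14 compared genes of HLA class I and antigen presentation, 3 were higher and 1 lower under both scalings. Among the higher ones, HLA-E stood at 261 CPM in A, 111 in B and 43.0 in C, and HLA-F at 114, 45.5 and 3.20 CPM. CD74, the invariant chain, was the lower entry, with 1 count in A, 117 in B and 4 in C. The HLA genes are near copies of one another, so their values are uncertain to that extent. Of 28 interferon-stimulated genes, 1 was higher and 3 lower (0 and 4 with medians set to 1). Against B alone 2 were higher and 19 lower, beside 22.6 and 14.2% of all entries. Against C alone 9 were higher and 4 lower, beside 28.4 and 9.60%. The list medians were -2.82 (log2, against B) and 0.56 (against C), so the low level held against B and not against C. ISG15 stood at 70.2, 1016 and 169 CPM and IFIT1 at 6.49, 70.6 and 13.5 CPM. Of 6 compared metallothioneins, MT1A and MT1F were lower and 0 higher under both scalings.

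Of 9 nuclear and host long non-coding RNAs, 3 were higher and 0 lower (2 and 0 with medians set to 1). MALAT1, a nuclear-retained RNA, stood at 31444 CPM in A, 9700 in B and 9348 in C, and NEAT1, the scaffold of paraspeckles, at 2470, 870 and 632 CPM. Of 41 splicing regulators, 4 were higher and 0 lower (1 and 0 with medians set to 1), and NOVA2, at 11.2, 0.599 and 0 CPM, passed under both. Beside this and the next lists stand 11.8% higher and 4.12% lower over all entries (6.17 and 6.98% with medians set to 1). The share of splicing regulators higher than both was thus under that of all entries by both scalings. Of 12 mitochondrially encoded genes, 0 passed in either direction against both groups. Against C alone, 8 of them were at most 0.5 times as high, beside 9.60% of all entries. Against B alone, 1 was at least 2-fold higher and 0 were lower. Of 21 glycolysis genes, 4 were higher and 1 lower (2 and 2 with medians set to 1), with PFKFB3 at 18.6, 2.69 and 3.20 CPM and PFKM at 5.31, 14.97 and 31.8 CPM. Of 28 cholesterol and fatty acid genes, 4 were higher and 0 lower (1 and 0 with medians set to 1). Integrins and matrix genes had 4 higher and 2 lower of 26 (2 and 4 with medians set to 1), with ITGB6 at 12.98, 0.299 and 0 CPM and ITGA2 at 5.31, 51.8 and 20.1 CPM. S100 and annexin genes had 2 higher and 0 lower of 17 (1 and 1 with medians set to 1).

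Whole-molecule reads allowed the members' transcript use to be compared within genes. A gene was compared when it was the only gene of its entry, listed at least 2 transcripts and had at least 100 counts in each group, and it counted as different when 1 transcript's share in A was higher than both or lower than both by at least 20 percentage points. Of 2450 genes, 10 (0.408%) passed, 4 with a higher and 6 with a lower share of the transcript. In 2209 genes the same transcript led in all 3 groups, and the median of the smaller difference was 0.985 points. Transcripts are named by Ensembl identifiers, exons are counted 5′ to 3′ and placed by GENCODE release 29 (GRCh38), and shares carry Clopper-Pearson intervals on rounded estimated counts. These intervals leave out the error of assigning a read to a transcript. The coding stretches below show what separates the forms of 5 of these genes: capitals mark bases that are coding in one form only, and 15 lower-case bases are from the shared neighbouring exon.

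ATP5C1 (ENSG00000165629), the gamma subunit of mitochondrial ATP synthase, ranked first for a single transcript by the smaller of its differences to B and C (37.5 points). The form with a 37-base exon 9 (ENST00000356708, exon at chr10:7806974-7807010, plus strand) had 39.7% of the gene's counts in the members (interval 37.0 to 42.6%, 1205 counts), 77.3% in B (73.6 to 80.7%, 563 counts) and 91.1% in C (89.4 to 92.5%, 1439 counts). The form that skips this exon (ENST00000335698) had 60.3, 22.7 and 8.95%. Inclusion ends the open reading frame with 4 coding bases in exon 9, while skipping leaves 1 coding base in the next exon, stop codons not counted.

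ENST00000356708 end of the coding sequence: tggtgctgcagctctGGAT

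ENST00000335698 end of the coding sequence: tggtgctgcagctctG

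TPM1 (ENSG00000140416) has forms with different first exons. One transcript from the upstream start (ENST00000358278, coding from chr15:63042830-63042943 and chr15:63044027-63044152, plus strand) had 23.5% of the counts in A (interval 20.6 to 26.7%, 761 counts), 72.6% in B and 59.3% in C. One from the internal start (ENST00000404484, coding from chr15:63048576-63048707), of the short tropomyosin forms, had 39.3, 4.46 and 13.98%. Summed over all 5 transcripts that begin there, the internal start held 52.5% in A (interval 48.9 to 56.2%), 5.61% in B and 17.2% in C. The 9 transcripts of the upstream start held 47.5, 94.4 and 82.8%. With only matrix entries that are whole numbers within 0.01, 154 counts remained in A, and the internal start had 64.9% in A, 15.4% in B and 32.0% in C. ENST00000358278 alone then missed the limit, with shares of 8.45% in A and 23.4% in C.

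ENST00000358278 exon 1, coding part: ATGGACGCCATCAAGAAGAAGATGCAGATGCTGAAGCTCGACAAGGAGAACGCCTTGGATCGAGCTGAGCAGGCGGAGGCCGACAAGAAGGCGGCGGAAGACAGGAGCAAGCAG

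ENST00000358278 exon 2 and the shared exon: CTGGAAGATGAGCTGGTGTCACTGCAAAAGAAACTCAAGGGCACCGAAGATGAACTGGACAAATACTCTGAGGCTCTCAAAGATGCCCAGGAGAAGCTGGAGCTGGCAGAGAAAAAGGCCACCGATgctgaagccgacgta

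ENST00000404484 exon 1, coding part, and the shared exon: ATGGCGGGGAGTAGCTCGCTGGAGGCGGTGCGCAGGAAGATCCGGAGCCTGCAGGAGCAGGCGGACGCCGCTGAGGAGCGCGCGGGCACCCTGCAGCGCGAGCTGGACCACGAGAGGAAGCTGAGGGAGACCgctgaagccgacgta

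MKNK2 (ENSG00000099875) encodes MNK2, a kinase that acts on the translation factor eIF4E, and its forms differ in the last coding exon. One form whose coding sequence ends in exon 13, coding part chr19:2039616-2039856 (minus strand, ENST00000591601), had 62.8% of the counts in A (interval 56.8 to 68.6%, 272 counts), 26.3% in B (137 counts) and 33.3% in C (389 counts). A form whose coding sequence ends further downstream, coding part chr19:2037742-2037829 (ENST00000309340), had 10.6, 41.5 and 26.7%. Each coding end belongs to 2 transcripts with counts. Summed, the exon 13 end held 84.3% in A (interval 79.3 to 88.3%), 38.1% in B and 43.4% in C.

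ENST00000591601 last coding exon: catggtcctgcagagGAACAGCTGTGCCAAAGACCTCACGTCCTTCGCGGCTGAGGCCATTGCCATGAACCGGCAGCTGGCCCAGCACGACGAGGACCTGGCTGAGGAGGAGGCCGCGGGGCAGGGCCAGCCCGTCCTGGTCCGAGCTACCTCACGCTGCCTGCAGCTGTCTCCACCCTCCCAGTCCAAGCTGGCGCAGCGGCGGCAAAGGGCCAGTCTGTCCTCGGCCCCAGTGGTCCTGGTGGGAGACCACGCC

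BCCIP (ENSG00000107949), which binds BRCA2 and p21, has forms with different ends. The end at chr10:125836104-125836271 (plus strand, ENST00000278100) had 27.3% of the counts in A (interval 21.8 to 33.3%, 242 counts), 48.1% in B and 52.95% in C. The longer form with the next exon at chr10:125841255-125841330 (ENST00000368759) had 45.8, 26.8 and 31.1%. A further form (ENST00000299130) had 26.9, 25.1 and 15.9%. The difference was 18.9 points lower with members at 90% or more of the choosing counts, and 19.7 points lower with ERBB2 left out of the choice, both under the limit.

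ENST00000278100 last coding exon: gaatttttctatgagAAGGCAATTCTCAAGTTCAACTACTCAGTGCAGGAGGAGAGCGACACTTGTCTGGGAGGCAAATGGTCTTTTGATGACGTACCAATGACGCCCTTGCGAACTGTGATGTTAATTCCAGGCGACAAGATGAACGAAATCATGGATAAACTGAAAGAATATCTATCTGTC

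ENST00000368759 exon 7: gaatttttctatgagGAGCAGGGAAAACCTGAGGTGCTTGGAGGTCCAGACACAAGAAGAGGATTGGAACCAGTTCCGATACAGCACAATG

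POLR1D (ENSG00000186184) encodes a subunit of RNA polymerases I and III. The form that joins exon 1 to a 75-base exon at chr13:27648379-27648453 (plus strand, ENST00000399697) had 50.8% of the counts in A (interval 46.4 to 55.0%, 542 counts), 27.0% in B and 15.5% in C. The other form joins exon 1 to an exon at chr13:27622875-27623247, coding part (ENST00000302979), and had 41.0, 63.1 and 80.1%. The 2 forms share only 26 coding bases at the start, so the function given for the gene need not hold for both.

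ENST00000399697 exon 2: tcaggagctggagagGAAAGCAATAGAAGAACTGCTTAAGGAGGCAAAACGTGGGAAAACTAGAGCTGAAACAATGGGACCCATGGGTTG

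The other 5 genes were read from their exon maps. RAD51C, a recombination repair protein, had a form of 2 exons (ENST00000421782) at 37.6% in A (interval 30.7 to 45.0%, 186 counts), 64.0% in B and 71.3% in C, and the form of 9 exons (ENST00000337432) at 59.8, 35.5 and 27.6%, so the members used the long form more. AKAP12, a scaffold for protein kinase A, had a form that starts inside the gene (ENST00000354675, first exon at chr6:151325688-151325885) at 74.4% in A (interval 71.4 to 77.3%, 860 counts), 18.99% in B and 50.1% in C. With a second form of inside start added, the shares were 79.9, 34.3 and 61.8%, which is 18.1 points above C and under the limit. PAPOLA, a poly(A) polymerase, had a form of 9 exons that ends inside the gene (ENST00000557320) at 22.7% in A (667 counts), 45.1% in B and 46.4% in C. A shorter form that also ends inside the gene (ENST00000557471) lay the other way, at 30.3, 24.9 and 13.96%. The forms ending inside the gene thus summed to 53.01% in A and 60.40% in C, 7.39 points lower and under the limit, and were 16.99 points below B. MCRIP1 had ENST00000538396, which splits the last exon of ENST00000455127 in 2, at 40.1% in A (475 counts), 17.5% in B and 13.1% in C. NDUFV3, a complex I subunit, had the form without a 1095-base exon (ENST00000340344) at 46.2% in A (185 counts), 66.9% in B and 75.1% in C. With barcodes weighted to the same number of counts of the gene in each group, 9 of the 10 differences stayed past 20 points, and NDUFV3 was 19.5 points lower in A. With only whole matrix entries NDUFV3 was 19.8 points lower, also under the limit.

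**Figure D4:**
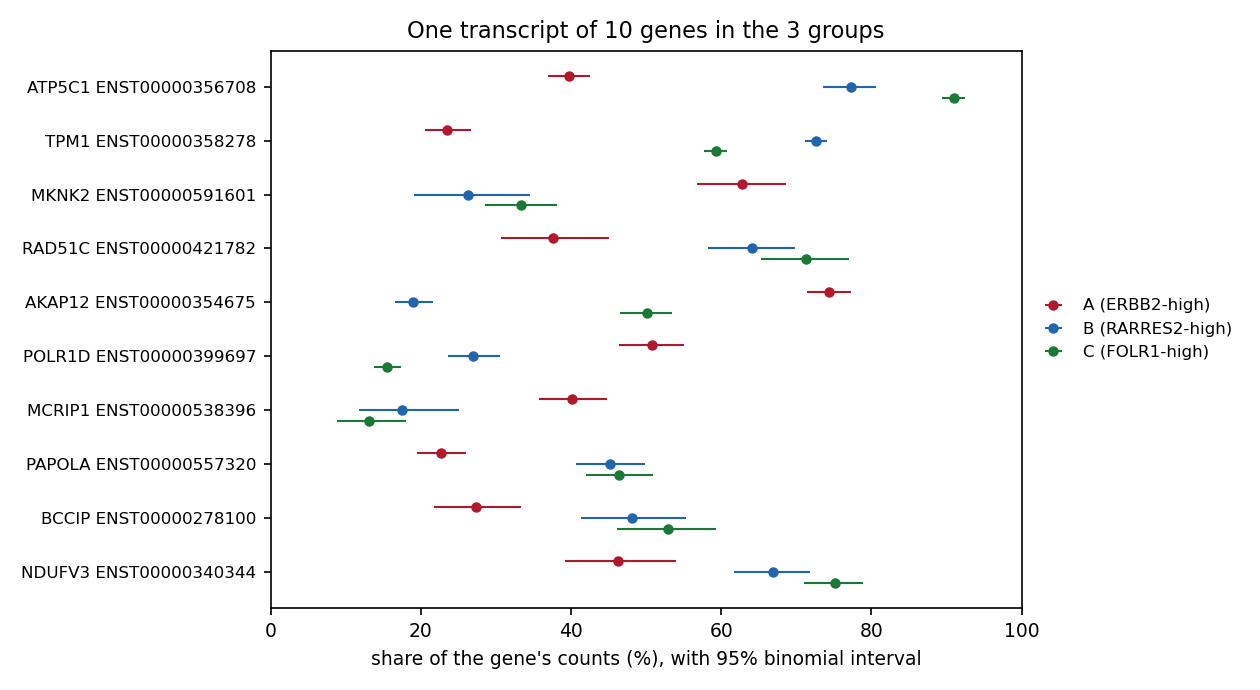
Share of the gene's counts (x axis, %) held by 1 transcript of each of the 10 genes in the ERBB2-high cells, B and C, with 95% Clopper-Pearson intervals. In every gene the ERBB2-high cells lie at least 20 points from both other groups on the same side.

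The members varied among themselves. At 2000 counts per cell, 131 of 3227 genes with a mean of at least 0.1 counts had a variance over mean of at least 1.5, where counting alone gives 1, and the median was 1.04. The 12 highest were MALAT1 (27.8), the ferritin gene FTH1 (13.3), KRT81 (8.10), fibronectin FN1 (6.45), KRT19 (5.93), S100A2 (5.38), the ferritin gene FTL (5.10), S100A4 (5.06), the metallothionein MT2A (5.04), the histone gene HIST1H4C (4.96), S100A6 (4.76) and NEAT1 (4.72). MALAT1 had a mean of 65.5 thinned counts per member and reached 260. KRT81 was seen in 3.20% of the thinned members and reached 15 counts, and FN1 was seen in 18.9% and reached 23. SLPI was seen in 10.0% of the 30 members with KRT81 and in 87.9% of the others, with median depths of 5115.5 and 5002 counts.

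Because of these genes the members were clustered on their own, an analysis chosen after the data had been seen. The choosing genes and 56 cell-cycle entries were left out of the clustering (Leiden, resolution 0.2). It gave 3 subclusters of 452, 108 and 67 members. Every gene value between subclusters is a description, since the same cells defined them. Subcluster 2 was led by RRM2, HMGB2, TOP2A and MKI67, genes of dividing cells, and had a median of 7596.5 counts against 4677 in subcluster 1 and 5268 in subcluster 3. Subcluster 3 (10.7% of the members, interval 8.38 to 13.4%) was led by KRT81, COL1A1, TENM2, IGFBP5 and THBS1, and it is called the COL1A1-led set here.

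The COL1A1-led set had few ERBB2 counts: 22 in all (58.7 CPM, against 479 in the other 560 members), and 50 of the 67 cells had none. Of the other choosing genes, NNMT stood at 1670 CPM against 747, DHRS2 at 413 against 326 and TSPAN1 at 24.0 against 459. Nothing is read from these 4 genes, since a cell low in some of them could be a member only through the others. Of the genes beside ERBB2, PPP1R1B had 0 counts in the set against 1447 in the others, PNMT 0 against 116 and GRB7 3 against 188. PGAP3, the nearest to ERBB2 of those compared, stood at 18.7 against 22.9 CPM (ratio 0.816, interval 0.316 to 1.77), above the 2.39 CPM of B and 1.83 of C. STARD3 stood at 77.3 CPM against 232 and MIEN1 at 368 against 551, both still above the 22.1 and 144 CPM of B. CDK12 (74.7 against 80.3 CPM), MED1 (58.7 against 72.0 CPM) and MSL1 (48.0 against 50.1 CPM) were near the level of the other members, while PSMD3 stood at 149 against 268 CPM and ORMDL3 at 10.7 against 23.2, within counting error (4 and 70 counts). Of the 24 compared entries of the 17q12 list, 0 were higher and 10 lower in the set. Over all 8922 compared entries, 7.21% were higher and 14.5% lower.

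The set shared some traits with the other members and not others. It held 0 counts of UQCRH and CDKN2A, 1 count of MDK (2.67 CPM, against 1444 in B) and 4 counts of SMARCC1 (10.7 CPM, against 52.7 in B). COX7B2, near absent from B and C, stood at 109 CPM against 123 in the other members, and MALAT1 at 35021 against 30999. Other genes that were high in the members were lower in the set, though above B and C: G0S2 stood at 328 against 1745 CPM, KIAA1551 at 165 against 1219, AKR1C3 at 195 against 599, COL12A1 at 80.01 against 325, LINC00624 at 18.7 against 82.6 and TMEM47 at 10.7 against 68.0. Of the 4 fibroblast markers, DCN, COL3A1 and LUM were at 0 counts in it, and COL1A1 stood at 760 CPM against 12.6 in the other members. With 1 library and no label for a barcode, a state of the same line and cells of another source cannot be told apart.

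Over 8922 entries, 643 (7.21%) were at least 2-fold higher in the COL1A1-led set than in the other members, and 1291 (14.5%) were at most 0.5 times as high, with a median log2 ratio of -0.12. Of 17 compared mesenchymal genes, 10 were higher and 1 lower, including SPARC (496 against 47.4 CPM), CDH2, which encodes N-cadherin (149 against 22.2 CPM), COL5A1 (280 against 47.4 CPM), AXL (149 against 39.1 CPM) and VIM (9129 against 4096 CPM). S100A4 was the lower one (2048 against 7297 CPM). Of 16 epithelial junction genes 2 were higher and 7 lower, and of 12 HLA and antigen presentation genes 0 were higher and 6 lower, HLA-B among them at 64.0 against 531 CPM. Of 17 feedback inhibitors and targets of ERBB signalling, 0 were higher and 11 lower, and of 13 ovarian lineage genes, 0 were higher and 6 lower, with SLPI at 133 against 2064 CPM. MT2A stood at 2790 against 322 CPM and TPM1 at 957 against 133 CPM. The set thus held 359 of the members' 761 TPM1 counts and 285 of their 323 COL1A1 counts. The members' TPM1 shares are therefore a blend: the internal start held 67.1% in subcluster 1 (interval 61.4 to 72.3%), 52.7% in subcluster 2 and 40.3% in the set (35.3 to 45.7%), each above B and C. The exon 9 form of ATP5C1 had 18.0% of the counts in it (interval 12.5 to 25.4%), against 42.8% in subcluster 1 and 43.3% in subcluster 2.

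**Figure D5:**
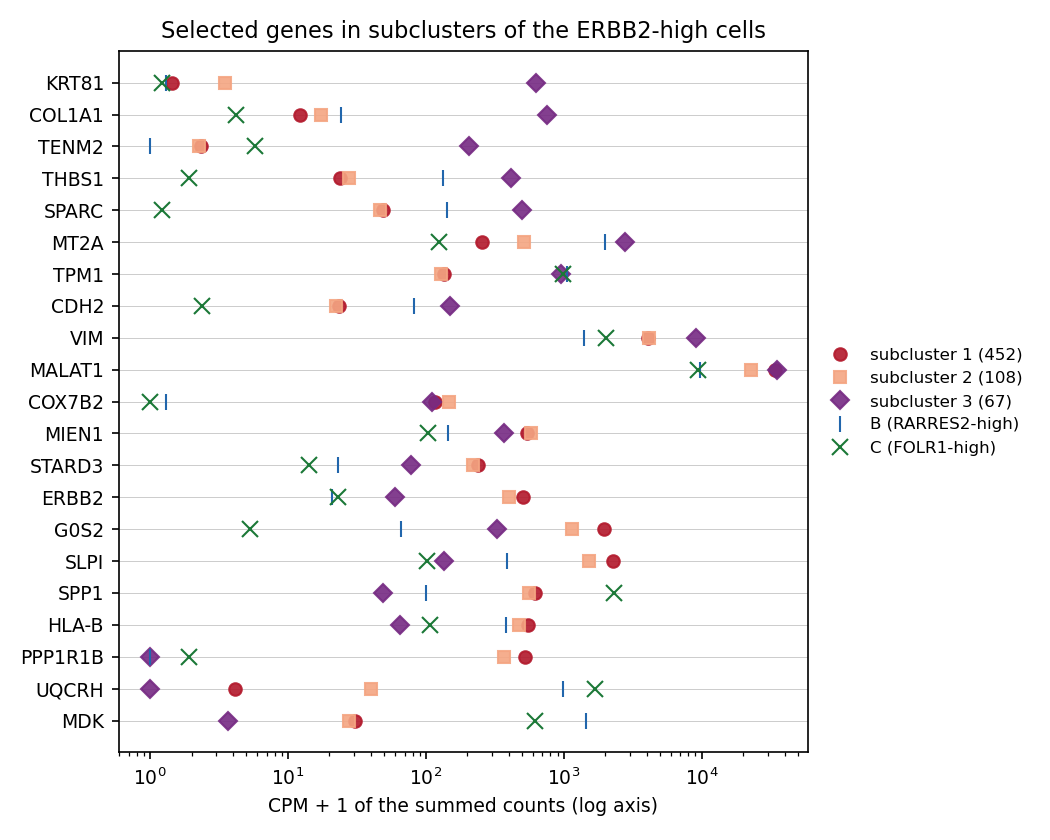
CPM + 1 (x axis, log scale) of selected genes in the 3 subclusters of the ERBB2-high cells (452, 108 and 67 cells) and in B and C. The COL1A1-led set (subcluster 3) lies above subclusters 1 and 2 for KRT81 to VIM and below them for MIEN1 to PPP1R1B. ERBB2, within that span, is a choosing gene and is shown as a description only. MALAT1 and COX7B2 are high, and UQCRH and MDK low, in all 3 subclusters against B and C.

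The size of the set depended on the clustering. At resolutions 0.2, 0.4 and 0.7, and with cell-cycle genes left out or kept, the subcluster with the most COL1A1 held 16 to 118 cells. Of these, 16 to 67 were among the 67 cells of the set. Without the 67 cells, 1163 entries were higher than both B and C and 396 lower, of which 1064 and 372 were among those called with them. COL1A1 was no longer higher than both but at 0.540 of the level in B, and COL5A1 missed the limit at 1.63-fold.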

How the data were processed

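The authors' deposited matrix holds estimated counts per transcript and barcode, unnormalised, with a table of transcript positions. The submitters' processing notes name Cell Ranger 6.0.1 and GRCh38, and the series' design text names Isosceles, with aligner, annotation release and any use of molecular identifiers not given in the sources used here. Barcode, feature and annotation lists were used as deposited by the authors and hold no measured value. Counts were summed per gene entry and rounded. All gene sums were whole within 0.01, and 49.5% of the matrix entries were.

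Members, gene lists and tests were chosen with earlier results of these data known. Python 3.11.15 with numpy 2.4.6, scipy 1.17.1, pandas 2.3.3 and scanpy 1.11.5 was used. Ratios of CPM carry exact conditional binomial intervals, and a group at 0 counts was set to 3 counts. No p-value was computed, as there was 1 library. Doublets (Scrublet, expected rate 0.02) stayed in. Of the 99363 transcripts with 1 Ensembl identifier, 99233 were in GENCODE 29 and 97721 had the same bounds. Sequences are from the GENCODE 29 transcripts. The calls were tested on simulated data. Genes were named by rule: the 20 highest ratios with at least 50 CPM in the members, the 12 lowest with at least 50 CPM in both other groups, the 10 largest differences in transcript share, the 12 highest variance over mean, and up to 6 of each list past 2-fold. Genes of the subclusters, neighbours of UQCRH and list genes that missed the limit were chosen after their values were seen. Results for some genes are not reported here.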

Additional observations from a re-analysis of the deposited data

How the results depend on the processing

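With ERBB2 as the sole choosing gene of A, 272 members were found, all among the 627. With medians of ratios set to 1, 585 entries were higher than both and 662 lower (list genes 52 and 47, against 82 and 29). At a minimum of 50 CPM, 411 of 4007 were higher and 150 lower (list genes 54 and 17), with 10 counts over the groups as the minimum 1664 of 12961 were higher and 602 lower (12.8 and 4.64%, against 11.8 and 4.12%), and at a fold limit of 4, 255 were higher and 137 lower. With mitochondrial and ribosomal protein genes left out of the total, 817 were higher and 580 lower, 58.5% higher of those called against 74.1%. Transcript calls were 18 of 3849 and 5 of 920 genes at minimums of 50 and 300 counts, and 85 and 2 at limits of 10 and 30 points. With members at 90% or more of the choosing counts, 8 of 1679 genes passed, 7 of them among the 10. With ERBB2 as the sole choosing gene, 11 of 1873 passed, 8 of them among the 10. Fewer genes reached the minimum in both of these settings. With only whole entries 13 genes passed, 7 of them among the 10. Of the other 3, MKNK2 (35 counts in B) and AKAP12 (75 in C) fell under the minimum and NDUFV3 missed the limit. Summed by shared start or end, a choice made after the data had been seen, AKAP12 and PAPOLA missed it too. The gap in median genes per cell was 118.5 to B and 340 to C at 4000 counts, and it turned to -248 against B without thinning. At 4000 counts 301 of 5402 genes passed the limit on variance over mean. With ERBB2 alone, CD74 and MT1A had 0 counts in the members, and set to 3 counts they gave upper bounds of 2.07 and 1.38 times the nearer group, which show no direction. Without the COL1A1-led set, which held most of its counts, COL1A1 turned to 0.540. The cause was not tested for the other changes. Of the single-gene ratios recomputed, 1718 stayed past the limit and 164 kept their direction without passing it. No paired analysis was possible because the platform has 1 library, the labels give no replicate numbers and no test was run. Counts limit low genes most, and an entry at 3 counts or fewer in a group carries a wide interval.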

Other observations

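Entries higher than both groups also lay side by side away from 17q12. By total counts, the longest run of consecutive compared entries was on chromosome 21, where 9 entries from PDXK to C21orf2 (chr21:43719094-44339402) were all higher. PDXK, which makes the active form of vitamin B6, stood at 202 CPM in the ERBB2-high cells, 45.8 in B and 44.3 in C, and CSTB, a cathepsin inhibitor, at 1257, 555 and 496 CPM. On chromosome 14, 7 entries from DCAF4 to RIOX1 (chr14:72926332-73493392) were higher, among them NUMB, an inhibitor of Notch signalling (83.2, 18.0 and 19.4 CPM). The run at ERBB2 had 8 entries. With medians of ratios set to 1 that run kept 6 entries and was the longest of the higher ones, and the runs over the chromosome 14, 21 and 12 regions given here had 5, 4 and 4.

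A run of 6 entries on chromosome 12 (chr12:31382223-32354144) held KIAA1551, at 1102 CPM in the ERBB2-high cells, 53.3 in B and 95.3 in C, and BICD1, an adaptor of dynein, at 94.7, 13.8 and 10.1 CPM. The longest run of lower entries by total counts had 4, on chromosome 7 (chr7:96955141-97181763), with DLX6-AS1 and DLX6 at 0 counts in the ERBB2-high cells and DLX5 at 1. SDHAF3, an assembly factor of mitochondrial complex II, closed that run at 22.7, 62.6 and 84.8 CPM. It grew to 7 entries with medians set to 1.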
